A study of Arabidopsis thaliana with 6 samples.

Results

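Ion channel and ion transporter genes were examined in expanding rosette leaves of Arabidopsis thaliana, and 19 genes made up the group. They were taken from the 13513 probe sets that the array's gene table pairs with 1 gene, by gene symbols of known channel, exchanger, pump and transporter families, out of 22746 probe sets tested. The 19 genes were 8 glutamate receptor-like channels (GLR), 6 cation/proton exchangers (CHX), 4 metal transporters (MTP11, NRAMP5, ZIP6 and ZIP9) and the nitrate transporter NRT2.5. No probe set with a single gene carried a symbol of the cyclic nucleotide-gated channels (CNGC), nor of the potassium channel, calcium pump, anion channel, plasma membrane proton pump, sulfate or phosphate transporter families. Those 7 classes are not analysed here. Their genes may lie among the 8730 probe sets that the gene table does not list, or among listed probe sets under other names.

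Leaves 3 to 6 were collected from plants grown in soil for 3 weeks under 16 h of light at 22 °C and 8 h of dark at 18 °C, with no further treatment. Wild-type plants of the Col-0 ecotype and sto2 mutants, described as null, were each represented by 3 biological replicates, and each sample was hybridised to 1 single-colour Affymetrix array. The series was made to look for genes that act downstream of STO2. Since the labels name no locus for STO2, its own transcript was not looked at as a check.

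Plant cells take up mineral ions through the plasma membrane and store or release them across the tonoplast and other inner membranes, with proton gradients driving much of the exchange. GLR proteins are ligand-gated cation channels that let calcium into the cytosol and are known for electrical and calcium signals that travel between wounded and distant leaves. CHX proteins exchange potassium or other monovalent cations for protons, and several of the metal carriers move manganese, zinc or iron into or out of the cytosol.

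The 19 genes showed no difference between sto2 and wild type that passed the test over all probe sets. With limma and Benjamini-Hochberg adjustment at 0.05, 0 of 19 passed, against 0.127% of all probe sets tested. At an unadjusted p under 0.05 there were 2 of 19, against 14.1% of all probe sets. These were GLR2.8, with a lower mean in sto2, and MTP11, with a higher mean. They were also the 2 of 19 genes whose sto2 and wild-type readings did not overlap, against 19.2% of all probe sets. Each of these shares of the ion transport genes was no larger than the share of all probe sets.

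The signals of the ion transport genes were set against the background of the arrays. As a yardstick, the array carries 27 probe sets against Bacillus transcripts that leaf RNA does not hold, and the largest of these on an array lay between 9.5 and 18.4 signal units. Readings larger than that value on the same array are called above the controls. By this measure 9 of 19 genes were read above the controls on all 6 arrays, against 62.2% of all probe sets and 7755 of the 13513 with 1 gene. For 3 of 19 this was so on none, against 19.2% of all probe sets. The remaining 7 exceeded the controls on some arrays. Probe sets differ in how well they hybridise, so a signal is compared between samples for 1 gene and not between genes. The samples were whole leaves, in which fewer cells of a type and less RNA per cell cannot be told apart.

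Among the GLR genes, the clade 3 members GLR3.3, GLR3.5 and GLR3.6 and the clade 1 member GLR1.4 were read above the controls on all 6 arrays. GLR3.6 (AT3G51480), which together with GLR3.3 carries wound-evoked electrical signals from leaf to leaf, read 56.1, 62.5 and 50.9 in wild type and 52.3, 58.1 and 54.5 in sto2. The 3 sto2 readings lay inside the wild-type range. The log2 difference of sto2 minus wild type, on the log2(signal + 16) scale used for every difference here, was -0.03 ± 0.09 (SE), with a 95% interval from -0.23 to 0.18 and a limma adjusted p of 0.933.

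GLR3.3 (AT1G42540), its partner in wound signalling and a channel opened by several amino acids, read 41.3, 53.6 and 54.3 in wild type and 46.3, 42.2 and 42.0 in sto2. Wild-type replicate 1 lay below every sto2 reading while the other two wild-type readings lay above them all, so the groups overlapped through that 1 array. Its log2 difference was -0.14 ± 0.10 (95% interval -0.38 to 0.10, adjusted p = 0.597). GLR3.5 (AT2G32390), a gene with isoforms directed to mitochondria and chloroplasts, showed the same arrangement, with 30.9, 43.5 and 42.2 in wild type and 40.6, 36.1 and 40.2 in sto2. The group means of GLR3.5, 38.9 ± 6.93 and 39.0 ± 2.49 (SD, n = 3 each), nearly coincided. The log2 difference of GLR3.5 was 0.01 ± 0.11, with an interval from -0.25 to 0.27. It turned to -0.0994 without wild-type replicate 1.

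GLR1.4 (AT3G07520), a methionine-gated cation channel when expressed in frog oocytes, read 43.2, 54.7 and 45.0 in wild type. In sto2 it read 43.2, 48.6 and 54.2, and the lowest reading was the same in both groups. Its log2 difference was 0.02 ± 0.10 (95% interval -0.22 to 0.27, adjusted p = 0.956).

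The clade 2 genes GLR2.7, GLR2.8 and GLR2.9 have a role in the calcium influx that microbial patterns evoke, and in the RefSeq gene table they are direct neighbours, with 0 protein-coding genes between one and the next. Each is described by its own readings. GLR2.8 (AT2G29110) read 18.8, 25.6 and 22.5 in wild type and 13.5, 18.6 and 11 in sto2. All 3 sto2 readings were below all 3 wild-type readings, but the closest pair, 18.8 and 18.6, differed by very little. All 3 wild-type readings exceeded the bacterial controls and 1 of the 3 sto2 readings did. That contrast rested on the highest control reading of each array, since all 6 readings exceeded the second highest. The mean was 22.3 ± 3.40 in wild type and 14.4 ± 3.87 in sto2. The log2 difference of -0.34 ± 0.12 had a 95% interval from -0.62 to -0.06, an unadjusted p of 0.0246 and an adjusted p of 0.282. Over its 16 alternatives the log2 difference ran from -0.62 to -0.14, and it passed under none of them (adjusted p from 0.208 to 0.557). Because its groups did not overlap, leaving out an array or changing the pseudocount could not turn its sign.

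GLR2.7 (AT2G29120) was the most variable GLR gene among those that rose above the controls on most arrays. It read 11.3, 34.8 and 18.3 in wild type and 30.5, 17.3 and 28.3 in sto2, a 3.08-fold range within wild type alone. Its log2 difference was 0.18 ± 0.24, with an interval from -0.40 to 0.75, and it was -0.0282 without wild-type replicate 1. GLR2.9 (AT2G29100) read between 0.4 and 5.3 and exceeded the controls on 0 of 6 arrays. A further probe set, shared by GLR2.2 and GLR2.3 and so outside the 19, read between 0.3 and 2.2, also never above the controls.

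ATGLR1.2 (AT5G48400), whose channel is known for calcium signals in pollen tubes, read 20.5, 17.5 and 14.3 in wild type and 15.2, 14.1 and 14.5 in sto2. These values lay close to the controls, which they exceeded on 4 of 6 arrays. The log2 difference was -0.12 ± 0.09 (95% interval -0.33 to 0.09). Over the 8 GLR genes the median log2 difference was -0.07, with 5 lower and 3 higher means in sto2, beside a median of -0.01 over all probe sets tested.

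**Figure D1:**
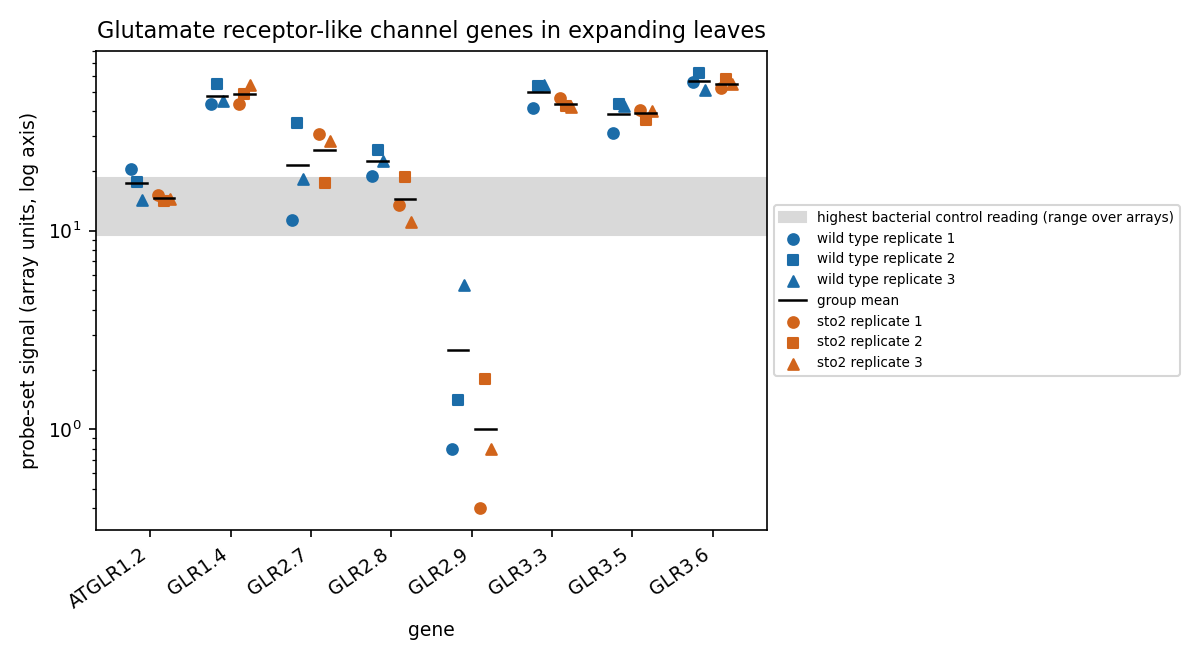
Probe-set signal of the 8 GLR genes on each of the 6 arrays, on a log axis, with a marker per replicate, black bars for group means and a grey band for the range of the highest bacterial control reading (9.5 to 18.4). GLR1.4, GLR3.3, GLR3.5 and GLR3.6 lie above the band on every array, GLR2.9 lies below it, and the groups separate in GLR2.8 alone.

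Of the 6 CHX genes, CHX20 was the only 1 read above the controls on all 6 arrays. CHX20 (AT3G53720), an endomembrane exchanger that takes part in potassium and pH balance of guard cells during stomatal opening, read 32.5, 41.4 and 41.6 in wild type and 32.9, 31.6 and 34.8 in sto2. Wild-type replicates 2 and 3 read higher than every sto2 array, while replicate 1 fell among the sto2 readings. Its means were 38.5 ± 5.20 and 33.1 ± 1.61, and its log2 difference was -0.15 ± 0.09 (95% interval -0.37 to 0.07, adjusted p = 0.532). No marker of guard cells in the marker list had a named probe set, so guard cell content was not compared between the groups.

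CHX19 (AT3G17630), a relative of CHX20, read 12.4, 19.4 and 22.3 in wild type and 18.9, 19.6 and 13.8 in sto2. It exceeded the controls on 5 of 6 arrays. The log2 difference was -0.02 ± 0.13, with an interval from -0.34 to 0.30, so the groups could not be separated in either direction. CHX6B (AT1G08135) read 19.5, 8.7 and 7.4 in wild type and 21.9, 13.7 and 11.5 in sto2, above the controls on 3 of 6 arrays. In both groups replicate 1 gave its highest reading.

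CHX15, CHX16 and CHX21 belong to a family in which many genes are expressed mainly in pollen, and CHX21 is known as a sodium carrier of the root endodermis. CHX15 and CHX21 exceeded the controls on 0 of 6 arrays, with readings from 2.5 to 5.4 and from 0.8 to 6.5. CHX16 exceeded them on 1 array, sto2 replicate 2, at 13.1, and read between 0.9 and 5.1 on the others. With readings at or below the controls in both groups, no fold is given for CHX15 and CHX21. For the class the median log2 difference was 0.11, with 4 of 6 means higher in sto2. All 4 of these belonged to genes at or near the controls, and with the 3 genes above the controls on at least 3 arrays the median was -0.02.

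The metal carrier MTP11 was read far above the controls on every array and was 1 of the 2 genes whose groups did not overlap. MTP11 (AT2G39450) is a manganese carrier of Golgi or prevacuolar membranes that is needed for manganese tolerance. It read 210.2, 225.4 and 207.9 in wild type and 253.3, 288.7 and 235.5 in sto2, so every sto2 reading exceeded every wild-type reading. The means were 214.5 ± 9.51 and 259 ± 27.1, a difference of 20.8% of the wild-type mean. On the log2 scale the difference was 0.25 ± 0.09, with a 95% interval from 0.03 to 0.47, an unadjusted p of 0.0314 and an adjusted p of 0.301. Over its 17 alternatives the difference ran from 0.18 to 0.31, and it passed under none of them (adjusted p from 0.203 to 0.565). As for GLR2.8, leaving out an array or changing the pseudocount could not turn its sign.

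The groups of the other metal carriers overlapped. ZIP6 (AT2G30080), of the zinc and iron carrier family, read 30.3, 43.6 and 43.7 in wild type and 42.1, 32.0 and 29.3 in sto2, with a log2 difference of -0.13 ± 0.14. ZIP9 (AT4G33020), a family member induced when zinc is short, read 19.8, 35.7 and 19.1 in wild type and 18.9, 26.4 and 22.4 in sto2. Replicate 2 was its highest reading in both groups, and the log2 difference was -0.06 ± 0.17. NRAMP5 (AT4G18790), of a divalent metal carrier family, read between 4.9 and 21.6 and exceeded the controls on 2 of 6 arrays. The median log2 difference of the 4 metal genes was -0.10, which turned to 0.07 without wild-type replicate 2.

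NRT2.5 (AT1G12940), a high-affinity nitrate transporter that is induced by nitrogen starvation and acts in roots and in minor veins of leaves, read 24.6, 26.1 and 16.9 in wild type. In sto2 it read 19.8, 21.8 and 15.9, and replicate 3 was the lowest of each group. It exceeded the controls on all 6 arrays, most narrowly on sto2 replicate 3, at 15.9 against 13.6. The log2 difference was -0.13 ± 0.12 (95% interval -0.41 to 0.16, adjusted p = 0.699).

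**Figure D2:**
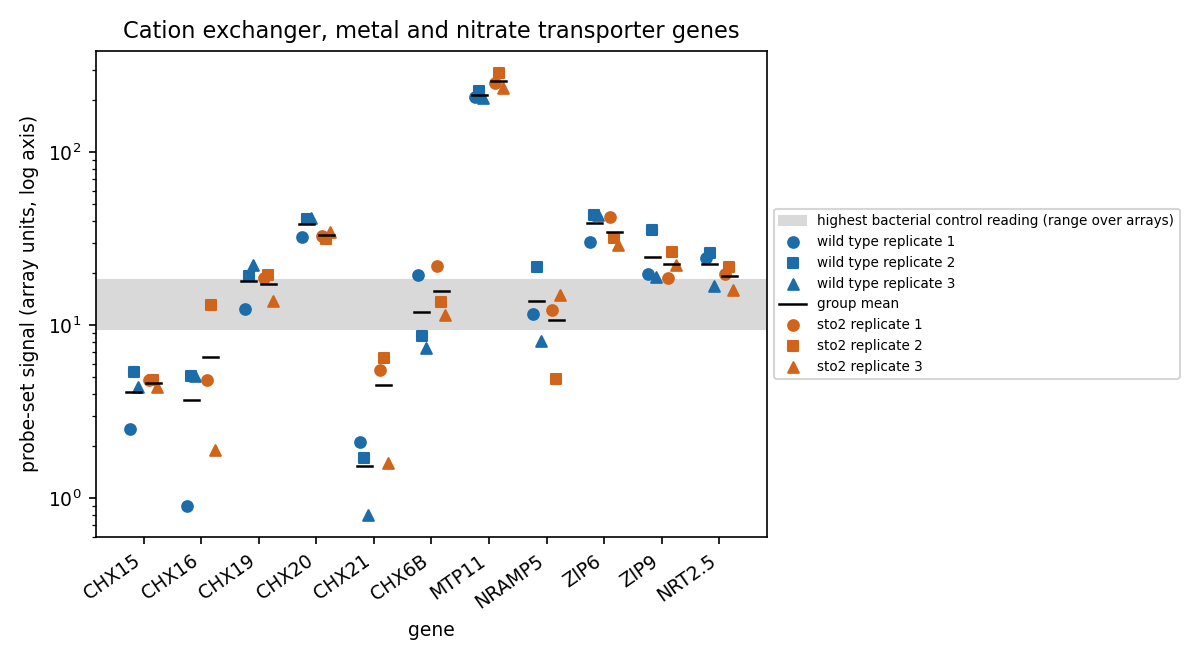
Probe-set signal of the 6 CHX genes, the 4 metal carrier genes and NRT2.5 on each array, on a log axis, drawn as for the GLR genes. MTP11 lies far above the grey control band with all sto2 readings above all wild-type readings, while CHX15 and CHX21 lie below the band on every array.

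Across the 19 genes the log2 differences ran from -0.34 for GLR2.8 to 0.25 for MTP11, with a median of -0.03. The median changed sign to 0.0320 without wild-type replicate 2 and to 0.00972 with the 5 genes left without the dimmest 50% of probe sets. Leaving out wild-type replicate 1 gave a median of -0.0853, and leaving out wild-type replicate 3 gave -0.00910. For sto2 replicates 1 and 2 the same step gave -0.0119 and -0.0601. Lower means in sto2 were found for 11 of 19 genes, against 52.2% of all probe sets. The 95% intervals reached from -0.64, for NRAMP5, to 0.75, for GLR2.7, so with the 16 units added no gene's interval included a log2 difference of 1 in either direction. That scale understates the change of dim transcripts, and with a pseudocount of 1 the difference of CHX21, which was never above the controls, was 1.02 (adjusted p = 0.457; from 0.373 to 0.703 over its alternatives). The standard errors ran from 0.08 to 0.24, with a median of 0.11, equal to the median of 0.11 over all probe sets. Given its own standard error, each gene would have needed a log2 difference of 0.70 to 2.10 to match the p-value of the last probe set that passed. For MTP11 that difference was 0.81, for GLR3.6 0.75, for GLR2.8 1.03 and for GLR2.7 2.10.

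**Figure D3:**
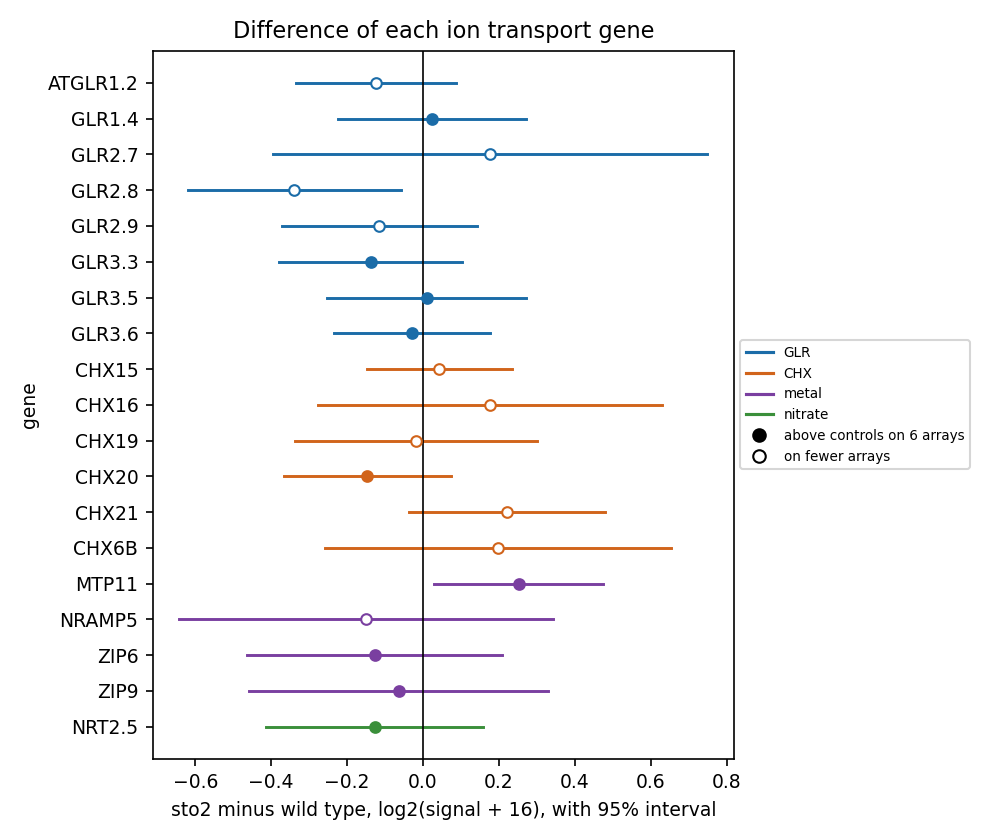
Difference of sto2 minus wild type on the log2(signal + 16) scale for each of the 19 genes, with its 95% interval from limma, coloured by ion class, with filled points for genes above the bacterial controls on all 6 arrays. The intervals of 17 genes include 0 and those of GLR2.8, from -0.62 to -0.06, and MTP11, from 0.03 to 0.47, do not.

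Wild-type replicate 1 gave the lowest wild-type reading for 11 of 19 genes, against 33.3% of all probe sets, and wild-type replicate 2 did so for 0 of 19, against 30.4%. Without wild-type replicate 1 the groups did not overlap for 7 of 19 genes, against 33.7% of all probe sets under the same omission. That count lay near the share of all probe sets. Under this omission GLR2.8, GLR3.3, GLR3.5, ZIP6 and CHX20 read lower in sto2, and MTP11 and CHX6B read higher. With every array kept the log2 difference of GLR3.5 was 0.01 (limma adjusted p = 0.982). GLR2.8 and MTP11 had separate groups with every array kept as well. Without wild-type replicate 3 the groups did not overlap for 4 of 19, against 30.2%. Omitting wild-type replicate 2 gave 2 of 19, against 27.9%. After quantile normalization 1 of 19 had separate groups, against 19.6%, and so had 1 of the 5 genes left without the dimmest 50% of probe sets, against 25.7%. Leaving out any 1 array brought 0 of 19 genes past the adjusted threshold.

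Some ion carriers depend on proton pumps. Of a list of other ion transport genes, the gene table named only the V-ATPase by symbol, through 3 genes for its membrane-bound subunit a. All 3 were read above the controls on all 6 arrays, and 0 of 3 passed, against 0.127% of all probe sets, with 1 of 3 at an unadjusted p under 0.05, against 14.1%. VHA-A3 (AT4G39080), a tonoplast isoform, read 418.6, 393.5 and 420.3 in wild type and 429.6, 474.2 and 527.0 in sto2. VHA-A1 (AT2G28520), the isoform of the trans-Golgi network and early endosome, read 85.7, 95.4 and 90.5 and then 74.2, 81.7 and 76.8. The groups of these 2 of 3 genes did not overlap, against 19.2% of all probe sets, and they lay in opposite directions, with log2 differences of 0.20 ± 0.09 (adjusted p = 0.388) and -0.19 ± 0.08 (adjusted p = 0.335). VHA-A2 (AT2G21410), the other tonoplast isoform, had a log2 difference of 0.07 ± 0.07. Whether the isoforms differed from each other in their response was not tested.

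Genes of the NRT1/PTR family, which carry nitrate, glucosinolates and hormones, were found through RefSeq synonyms after the values had been seen. The family gave 11 genes, of which 0 passed, against 0.127% of all probe sets, and 5 had an unadjusted p under 0.05, against 14.1%. AT2G26690 (NPF6.2), a nitrate carrier of petioles, read 344.1, 556.7 and 408.9 in wild type and 347.1, 245.5 and 268.8 in sto2. The groups overlapped only through wild-type replicate 1 and sto2 replicate 1, and the log2 difference was -0.57 ± 0.20 (adjusted p = 0.282). AT3G21670 (NPF6.4) read 34.6, 110.1 and 80.4 in wild type and 37.2, 30.3 and 30.5 in sto2. Its wild-type readings spanned 3.18-fold, with replicate 1 at the level of the sto2 arrays. The log2 difference of AT3G21670 was -0.81 ± 0.31 (adjusted p = 0.321), and without wild-type replicate 1 it was -1.18 (adjusted p = 0.0835). Its adjusted p without wild-type replicate 2 was 0.519.

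The glucosinolate carriers GTR1 (AT3G47960) and GTR2 (AT5G62680) had differences of opposite sign, and were the 2 of 11 genes with separate groups, against 19.2% of all probe sets. GTR1 read 41.5, 44.4 and 50.1 in wild type and 57.0, 53.6 and 71.6 in sto2, a log2 difference of 0.32 ± 0.11 (adjusted p = 0.282). GTR2 read 172.5, 209.6 and 205.8 in wild type and 169.6, 133.3 and 166.0 in sto2, a log2 difference of -0.30 ± 0.12 (adjusted p = 0.328). The fifth gene, AT1G59740 (NPF4.3), had a log2 difference of -0.42 ± 0.17 (adjusted p = 0.347). The remaining 6 NRT1/PTR genes had adjusted p-values from 0.446 to 0.978. Wild-type replicate 1 gave the lowest wild-type reading for 10 of these 11 genes and sto2 replicate 1 the highest sto2 reading for 8 of 11, against 33.3% and 32.6% of all probe sets.

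**Figure D4:**
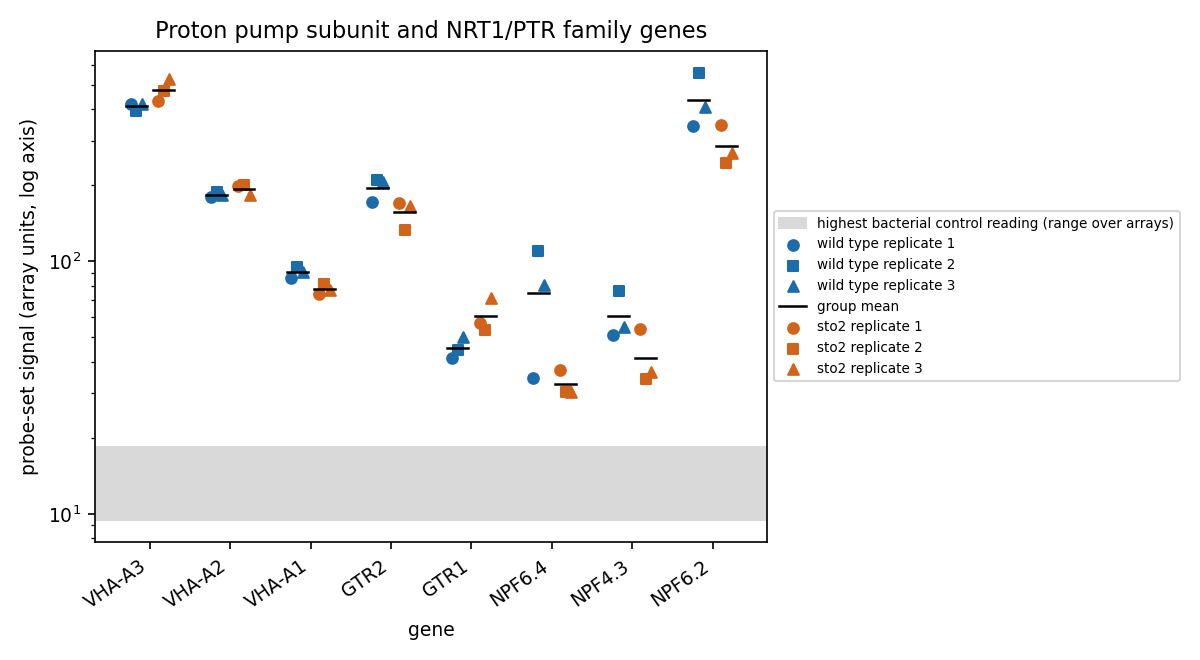
Probe-set signal of the 3 V-ATPase subunit a genes and the 5 NRT1/PTR family genes with an unadjusted p under 0.05 on each array, on a log axis, with the grey band for the bacterial controls. In NPF6.2 and NPF6.4 the other two wild-type arrays lie above the sto2 arrays and wild-type replicate 1 lies among them.

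The arrays were alike in scale, with medians between 37 and 38.5 signal units, and having only 3 arrays per group limits how precise any value is. Over all probe sets 29 passed the threshold. Of 39 marker symbols, 8 could be matched to named probe sets. The mesophyll genes RCA, LHCB4.1 and LHCB4.2 read above 4010 on every array, and the shoot apex genes CLV3 and UFO read at or below 5.8. LHCB4.2 was the only matched marker with separate groups, against 19.2% of all probe sets. It was lower in sto2, with a log2 difference of -0.11 ± 0.07 (limma adjusted p = 0.533). For RCA and LHCB4.1 the log2 differences were -0.10 ± 0.08 (adjusted p = 0.621) and 0.06 ± 0.07 (adjusted p = 0.767). The root gene PYK10 read from 6.2 to 14.4. The phloem gene SWEET11 read from 701.5 to 1212.3, with a log2 difference of 0.24 ± 0.18 (adjusted p = 0.594), and the trichome gene SIM from 62.1 to 98.0, with -0.24 ± 0.13 (adjusted p = 0.459). In SWEET11 and SIM, as in most NRT1/PTR genes, wild-type replicate 1 was the lowest wild-type array and sto2 replicate 1 the highest sto2 array. The other matched markers did not show this order. In RCA, LHCB4.2, CLV3 and UFO wild-type replicate 1 was the highest wild-type array. The part of mesophyll, phloem and trichome cells in the differences was not tested. The 3' over 5' ratios of control transcripts differed by -0.08 to 0.05 on the log2 scale for 5 ratios and by -0.52 for the older actin probe sets (p = 0.1 by a 2-sided exact permutation test, its lower limit with groups of 3), and their part in the differences above was not tested.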

How the data were processed

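The deposited values are linear signal intensity per probe set. Per the labels' protocols, a service provider labelled the total RNA with biotin, hybridised it and scanned the arrays. How probes were summarised is not given in the sources consulted. Every array had a 2% trimmed mean of 100.009, the mark of 1 scaling factor per array. Array medians differed by 0.04 on the log2 scale, under the limit of 0.1, so no further normalization was applied. The 64 control probe sets were left out. A moderated linear model (limma 3.58.1, eBayes, under R 4.3.3) compared the groups 2-sided over 22746 probe sets after adding 16 to each signal and taking log2. The procedure was tested on simulated data.

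The probe-gene table named the members, 1 probe set each, and all 19 matched a locus in the RefSeq table of assembly TAIR10.1, used for names and neighbours. Members and lists were chosen with earlier results of these data known. The naming rule took genes past the threshold, GLR genes above the controls on all arrays, the brightest 2 of each other class and up to 3 with separate groups. It named 10 genes, and the other 9 were named after their values were seen, to account for every member. Same-numbered samples did not deviate together (correlations -0.37, -0.23 and 0.11 over 14157 probe sets), so replicate numbers were not used as pairs. Differently numbered samples had correlations from -0.30 to 0.40, the largest for wild-type replicate 1 with sto2 replicate 2. The alternatives were other normalizations, pseudocounts of 1 and 64, filters on dim probe sets, other priors, array weights, probe sets with 1 gene, the replicate block and each array left out.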

Additional observations from a re-analysis of the deposited data

How the results depend on the processing

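None of the 19 ion transport genes, the 3 V-ATPase genes or the 11 NRT1/PTR genes passed under any alternative run. The smallest adjusted p was 0.203 among the 19, without the dimmest 50% of probe sets, 0.216 among the V-ATPase genes with a pseudocount of 64 and 0.0835 among the NRT1/PTR genes without wild-type replicate 1. The 29 calls over all probe sets became 70 with array weights, 72 with an intensity trend and robust prior, 141, 147 and 227 with only probe sets above the controls or without the dimmest 30% or 50%, 6 with only probe sets with 1 gene, and 17 and 83 with pseudocounts of 1 and 64. They were 2 with the replicate number as a block, with 0 ion transport genes among them. Without wild-type replicates 1, 2 and 3 there were 22, 7 and 11, and without sto2 replicates 1, 2 and 3 there were 8, 7 and 5. Some of these fits held fewer probe sets or arrays, and the causes of the changed counts were not tested.

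Separate groups were found for 1 of 19 genes after quantile normalization, against 19.6% of all probe sets, for 1 of the 5 left without the dimmest 50%, against 25.7%, and for 2 to 7 of 19 with 1 array left out, against 26.7% to 33.7%. The CHX median of 0.11 became 0.32 with a pseudocount of 1, -0.0189 with the 3 genes above the controls and -0.0827 with the 2 left without the dimmest 30%. The metal median of -0.10 became 0.25 without the dimmest 50%, when MTP11 alone remained, and ran from -0.17 to 0.0745 with 1 array left out. Genes read above the controls on all arrays numbered 11 with the second highest control reading in place of the highest.

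Of the ion transport genes and those named beside them, 19 of 434 alternative values changed sign, all of values that did not pass. The filters, the other prior and the replicate block leave the difference of a gene as it was. Those alternatives are among the 434 and could not change a sign. GLR3.5 became -0.0213 with array weights and CHX19 became 0.0105 after quantile normalization. With 1 array left out, GLR3.5 ran from -0.0994 to 0.0722, GLR1.4 from -0.0368 to 0.102, CHX19 from -0.144 to 0.0720, NRAMP5 from -0.289 to 0.0320, ZIP9 from -0.162 to 0.117, GLR3.6 from -0.0850 to 0.0303, GLR2.7 from -0.0282 to 0.42, CHX15 from -0.0158 to 0.0892 and CHX16 from -0.0222 to 0.328. Each gene had 1 probe set, so averaging probe sets gave no other value. Depth is limited by signal, since 10 of the 19 genes were not above the controls on every array.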
